A study of Mus musculus with 8 samples.

Results

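The 10 genes described here encode subunits of RNA polymerase I (Pol I) and its initiation factors in mice. They were the rows of the count table whose Ensembl gene identifiers carry the symbols Polr1a, Polr1b, Polr1c, Polr1d, Polr1e, Cd3eap, Znrd1, Twistnb, Rrn3 and Ubtf, out of 54838 genes in the table. The first 8 are polymerase subunits and the last 2 are initiation factors. Cd3eap, Znrd1 and Twistnb are older symbols of Polr1g, Polr1h and Polr1f.

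Pol I transcribes only the ribosomal RNA repeat in the nucleolus, and this transcription is a main control point of ribosome production. Initiation needs the HMG-box protein UBF (encoded by Ubtf), which binds along the repeat, the promoter selectivity factor SL1, and Rrn3 (TIF-IA), which couples the polymerase to the promoter complex. Nucleotides are the substrates of this polymerase, and MYC is a known activator of many of its components.

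RNA was measured in acute myeloid leukemia cells that express the RUNX1-RUNX1T1 fusion, on a C57BL/6 background, grown in Ptprca recipient mice and isolated by sorting for cKit. The labels say that recipients were sub-lethally irradiated, whereas the methods of the study name irradiation only for its other leukemia models. AG636, which blocks the pyrimidine synthesis enzyme DHODH, was given by gavage, 2 times a day at 100 mg/kg. There were 4 Vehicle samples and 4 AG636 samples. All 8 samples held the same leukemia in the same kind of host, and the labels give the agent as the difference between the groups. The study describes treatment for a day. Bone marrow and spleen are named as tissues without a statement of which sample came from which, and the age of the mice is not given. The labels do not tie samples to mice, and the study describes fewer mice than samples for this model, so the p-values measure the spread between samples and may overstate the number of independent animals. The recipients keep blood cells of their own, which a sort can carry over.

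Totals were between 6120030 and 7162036 counts per sample, and 10911 genes passed the filter on low counts, all 10 Pol I genes among them. Kit was at 153 to 252 CPM (counts scaled to a common library size with TMM factors) and Myb at 388 to 717 CPM in the 8 samples. Ptprc reached only 9.25 CPM, Mpo 4.77 CPM, Itgam 0.615 CPM and Ly6g 0.723 CPM, and Flt3 did not pass the filter. The summed level of 6 progenitor markers was 562 to 700 CPM in Vehicle and 636 to 946 CPM in AG636, that of 5 erythroid markers 1904 to 5781 and 4291 to 5794 CPM, and that of 8 mature myeloid markers 41.2 to 95.9 and 16.02 to 184 CPM. Of these lists 0, 1 (Hbb-bt, higher) and 0 genes passed the test by limma-voom, edgeR and DESeq2, and 2, 1 and 1 genes were higher at an unadjusted limma-voom p under 0.05. Over all tested genes, 5.47% passed limma-voom in the higher direction. B cell markers summed to 5.38 to 13.4 CPM in Vehicle and 10.7 to 22.5 CPM in AG636. Of the 6 listed, 5 were tested, and limma-voom called 1 higher (Cd79a, at 2 to 22 counts per sample). edgeR called 1 and DESeq2 0, and 2 were higher at an unadjusted limma-voom p under 0.05. T and NK cell markers summed to 2.13 to 9.28 and 3.99 to 19.1 CPM, megakaryocyte markers to 12.02 to 18.1 and 13.1 to 61.0 CPM, and stromal markers to 1.23 to 3.04 and 1.76 to 4.15 CPM with Cxcl12 at 0 in all samples. None of the last 3 lists had a gene past limma-voom; at an unadjusted p under 0.05 the megakaryocyte list had 1 (Pf4, higher), which edgeR and DESeq2 called, and the other two lists had 0. Their part in the results below was not tested, and in bulk samples fewer cells of a type and less RNA per cell cannot be told apart. Vehicle sample 4 and AG636 sample 3 lay away from the rest of their groups in a multidimensional scaling plot, and the count of Pol I genes is given without them as well.

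To ask how DHODH inhibition altered the Pol I apparatus in leukemic cells, each gene was compared between AG636 and Vehicle. Converted from the fitted log2 fold changes, Cd3eap changed by -52.2% and Ubtf by -46.1%, followed by Polr1b (-40.9%), Polr1a (-31.2%) and Polr1d (-28.7%). Thus 5 of the 10 genes passed the test in the lower direction and 0 in the higher direction by limma-voom, where 8.49% of all tested genes passed it in the lower direction (926 of 10911), 5.47% in the higher direction and 14% in either direction. At an unadjusted p under 0.05, 8 of the 10 were lower and 0 higher, and the share of all genes at that threshold is not given here. edgeR called 5 lower and 0 higher, beside 918 of 10911 genes lower over all. DESeq2 called 6 lower and 0 higher, beside 1015 of 10911 genes lower over all. The 10 genes had a median log2 fold change of -0.51, and 9 of them were below 0, beside a median of -0.0056 and 50.6% of genes below 0 over all genes tested. All 4 AG636 samples were below all 4 Vehicle samples for 6 of the 10 genes, a pattern that 12.9% of all tested genes showed (22.2% had no overlap in either direction). The study reported Pol I components as downregulated in this model and in its IDH1, DNMT3A and Nras mutant model, but not in its MLL-AF9 model. Since it used these same samples, the counts given here are not independent evidence of the direction. The same 5 genes passed the test in each of the 11 other fits and each of the 8 fits without 1 sample. Without Vehicle sample 4 and AG636 sample 3 together, 6 passed it, the sixth being Polr1e. A stricter threshold of 0.01 on the adjusted p-value left 4 (Polr1a, Polr1d, Cd3eap and Ubtf).

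**Figure D1:**
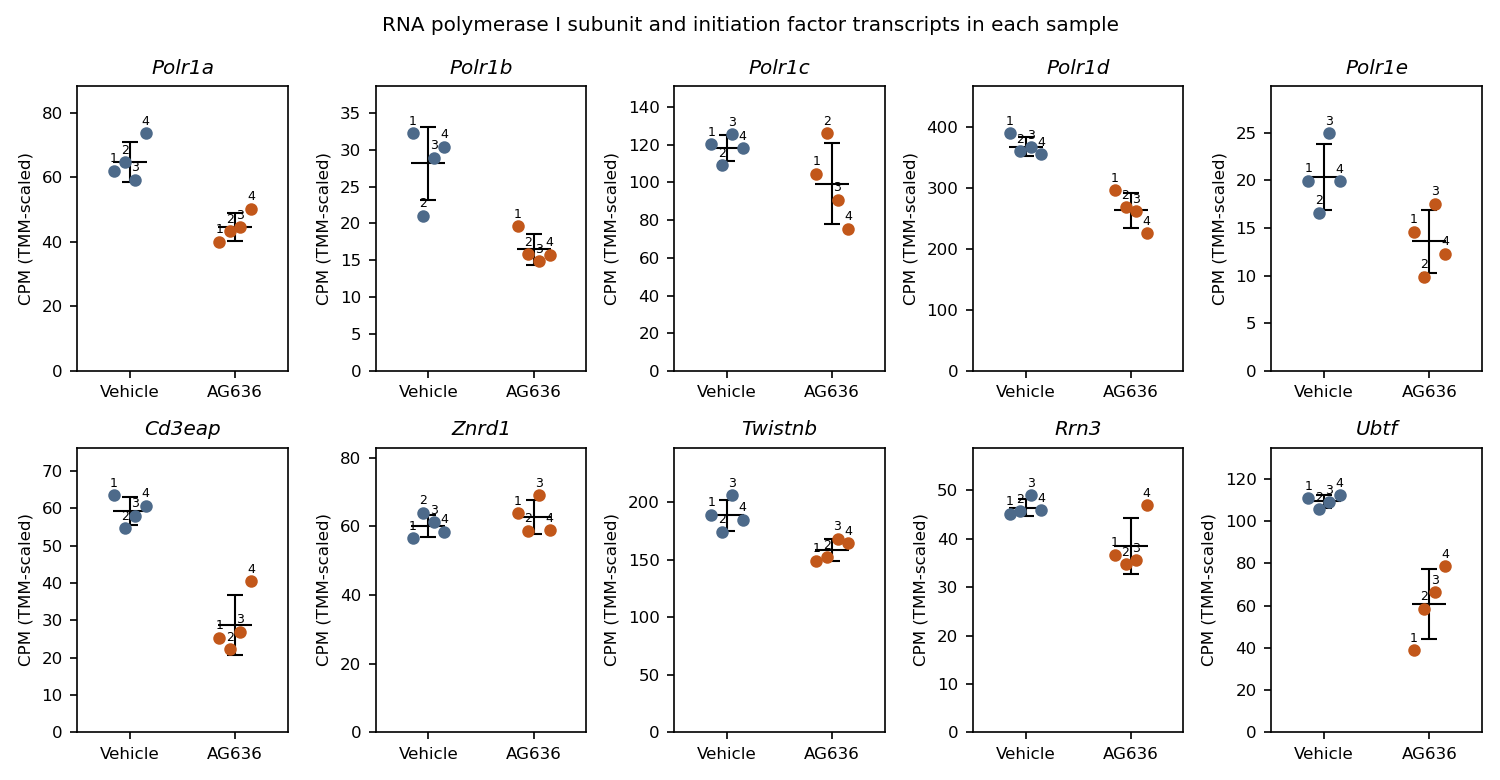
Each panel plots 1 gene, with the level in CPM on a linear axis that starts at 0 and 1 point per sample, numbered as in the text; bars are the mean and SD of 4 samples. The groups are apart for Polr1a, Polr1b, Polr1d, Cd3eap, Twistnb and Ubtf and overlap for Polr1c, Polr1e, Znrd1 and Rrn3.

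The catalytic core of the enzyme is formed by its largest subunit, encoded by Polr1a, and its second largest subunit, encoded by Polr1b. Polr1a (ENSMUSG00000049553, chr6:71909053-71984935, plus strand, GRCm38) was at 62.1, 64.7, 59.3 and 73.6 CPM in Vehicle samples 1 to 4 and at 40.1, 43.3, 44.7 and 50.3 CPM in AG636 samples 1 to 4. The highest AG636 sample, number 4, stayed below the lowest Vehicle sample. Polr1a fell from 64.9 ± 6.22 to 44.6 ± 4.26 CPM (SD, n = 4 each), and its log2 fold change was -0.54 (SE 0.11, 95% interval -0.77 to -0.31, limma-voom adjusted p = 0.00910).

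Polr1b (ENSMUSG00000027395, chr2:129100995-129126594, plus strand) was at 32.2, 21.1, 28.9 and 30.4 CPM in Vehicle and at 19.6, 15.8, 14.8 and 15.8 CPM in AG636. Vehicle sample 2 lay well below the other three Vehicle samples and close to AG636 sample 1, so that the groups were apart by a narrow margin. The mean fell from 28.2 ± 4.92 to 16.5 ± 2.11 CPM, with a log2 fold change of -0.76 (SE 0.16, 95% interval -1.12 to -0.40, limma-voom adjusted p = 0.0136). Both genes of the catalytic core were therefore lower, and their intervals overlapped.

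Polr1c and Polr1d encode the assembly heterodimer that Pol I shares with Pol III. Polr1d (ENSMUSG00000029642, chr5:147077050-147111597, plus strand) was at 389, 360, 366 and 355 CPM in Vehicle and at 296, 269, 262 and 226 CPM in AG636. The Vehicle samples were tightly grouped, and all AG636 samples lay below them. Polr1d fell from 368 ± 14.9 to 263 ± 28.8 CPM, and its log2 fold change was -0.49 (SE 0.09, 95% interval -0.69 to -0.29, limma-voom adjusted p = 0.00777).

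Its partner Polr1c (ENSMUSG00000067148, chr17:46243920-46248054, minus strand) was at 120, 109, 126 and 118 CPM in Vehicle and at 105, 126, 90.8 and 75.5 CPM in AG636. The groups overlapped, since AG636 sample 2 was as high as the highest Vehicle sample while AG636 sample 4 was the lowest of all. The means were 118 ± 6.96 and 99.2 ± 21.4 CPM, and the log2 fold change of -0.28 (SE 0.14, 95% interval -0.58 to 0.03) did not pass the test (limma-voom adjusted p = 0.198). Without AG636 sample 2 the log2 fold change was -0.40 and passed it (adjusted p = 0.0482). Whether the changes of both partners differ was not tested.

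Polr1e and Cd3eap encode the heterodimer that is particular to Pol I and takes part in initiation and elongation. Cd3eap (ENSMUSG00000047649, chr7:19356014-19359483, minus strand) was at 63.5, 54.6, 58.0 and 60.7 CPM in Vehicle and at 25.3, 22.3, 27.0 and 40.5 CPM in AG636. AG636 samples 1 to 3 were close together and far below every Vehicle sample, and AG636 sample 4 lay between them and the Vehicle samples. The mean fell from 59.2 ± 3.82 to 28.8 ± 8.02 CPM, with a log2 fold change of -1.07 (SE 0.16, 95% interval -1.41 to -0.72, limma-voom adjusted p = 0.00318). Its log2 fold change was at rank 92 from the lowest among the 10911 tested genes.

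The promoter of Cd3eap is shown because this gene changed most. It is given in the direction of transcription from RefSeq (GRCm38.p6, chr7:19359434-19359733, minus strand), from 250 bases before to 50 bases after the start site. Capitals mark matches to CACGTG, the E-box letters that MYC and related factors bind, and to CCGGAAG or its reverse complement, the core that ETS factors bind.
Cd3eap: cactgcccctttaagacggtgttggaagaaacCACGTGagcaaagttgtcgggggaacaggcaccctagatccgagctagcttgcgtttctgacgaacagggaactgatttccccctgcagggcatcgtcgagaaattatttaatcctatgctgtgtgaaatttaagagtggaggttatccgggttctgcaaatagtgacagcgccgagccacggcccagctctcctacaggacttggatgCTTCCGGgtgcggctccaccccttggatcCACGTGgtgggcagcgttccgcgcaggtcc
The window held 2 E-box matches, at positions -218 to -213 and 21 to 26 from the start site, and 1 ETS match on the opposite strand at -9 to -3.

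The 3′ end of Cd3eap lies over the 3′ end of Ercc1, a DNA repair gene on the opposite strand (chr7:19344778-19356524), and the exons of both share 106 bases. Whether counting used strand is not given in the sources used here, so the reads of the shared bases cannot be told apart. The libraries were made with a 3′ mRNA kit, and how many reads of either gene came from the shared bases was not measured. Raw counts of Cd3eap were 436, 355, 375 and 399 in Vehicle and 163, 140, 169 and 280 in AG636, and those of Ercc1 were 93, 96, 100 and 96 in Vehicle and 101, 63, 69 and 89 in AG636. Cd3eap thus had the larger count in every sample, and only its counts separated the groups. The log2 ratio of Cd3eap to Ercc1 counts, with 2 counts scaled to the library size added to each, was 1.996 ± 0.16 in Vehicle and 1.18 ± 0.39 in AG636 (SD, n = 4 each), a difference of -0.82 with 4 of 4 AG636 samples below the lowest Vehicle sample (two-sided exact permutation p = 0.0286, the smallest that 70 relabellings can give). Ercc1 itself had a log2 fold change of -0.25 (limma-voom adjusted p = 0.325), with 3 of 4 AG636 samples below the lowest Vehicle sample in CPM. Since the counts of Cd3eap alone separated the groups, the ratio cannot tell how reads of the shared bases were assigned.

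**Figure D2:**
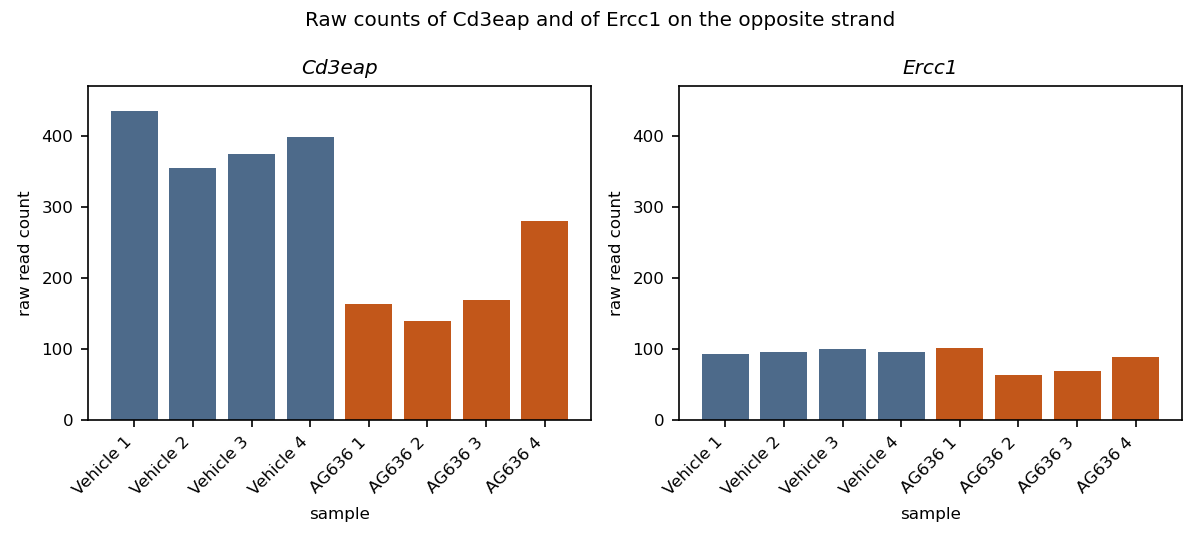
Bars give the raw read count of Cd3eap (left) and of Ercc1 (right) in each sample, on the same axis from 0. Cd3eap has at least 355 counts in Vehicle and at most 280 in AG636, while Ercc1 has 93 to 100 in Vehicle and 63 to 101 in AG636.

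Polr1e (ENSMUSG00000028318, chr4:45018583-45036565, plus strand) had the lowest counts of the 10 genes, down to 62 in 1 sample. It was at 20.0, 16.6, 24.9 and 19.9 CPM in Vehicle and at 14.6, 9.90, 17.6 and 12.3 CPM in AG636. The groups overlapped, because AG636 sample 3 was above Vehicle sample 2. Its means were 20.4 ± 3.43 and 13.6 ± 3.27 CPM, and its log2 fold change of -0.60 (SE 0.19, 95% interval -1.02 to -0.18) missed the threshold (limma-voom adjusted p = 0.0599). Without AG636 sample 3 it passed (log2 fold change -0.73, adjusted p = 0.0302), as it did by DESeq2 (adjusted p = 0.0461). The estimate was thus similar in size to that of Polr1a but with a wider interval.

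Twistnb encodes the stalk subunit on which Rrn3 docks. Twistnb (ENSMUSG00000020561, chr12:33429635-33441392, plus strand) was at 189, 174, 206 and 185 CPM in Vehicle and at 149, 152, 168 and 165 CPM in AG636. All AG636 samples lay below all Vehicle samples, but the gap between the groups was small. The means were 189 ± 13.3 and 159 ± 9.36 CPM, and the log2 fold change of -0.25 (SE 0.08, 95% interval -0.43 to -0.07) did not pass the test (limma-voom adjusted p = 0.0677), nor did it in any of the 20 alternatives, where the lowest adjusted p was 0.0520.

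Znrd1 encodes the small subunit that supports RNA cleavage by the polymerase, and it was the only one of the 10 genes without a lower mean in AG636. Znrd1 (ENSMUSG00000036315, chr17:36954356-36958559, minus strand) was at 56.5, 63.9, 61.1 and 58.4 CPM in Vehicle and at 63.8, 58.7, 69.1 and 58.8 CPM in AG636. The samples of both groups were intermixed. The means were 60.0 ± 3.23 and 62.6 ± 4.92 CPM, and the log2 fold change was 0.06 (SE 0.09, limma-voom adjusted p = 0.698), with a 95% interval of -0.14 to 0.26. That interval lay above the whole intervals of Polr1a, Polr1b, Polr1d, Cd3eap and Ubtf. The estimate stayed above 0 in all 20 alternatives, between 0.0094 and 0.13.

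The RefSeq promoter of Znrd1 (GRCm38.p6, chr17:36958476-36958775, minus strand) is shown beside that of Cd3eap as the member that did not fall. It held none of the E-box or ETS letters, so no base is in capitals, and it held 28 CpG dinucleotides against 18 in that of Cd3eap. The same letters were absent from the windows of Polr1a, Polr1b, Polr1d and Ubtf, which passed the test as lower. The window of Rrn3, which did not pass it, held both. The start sites of the Polr1d and Ubtf windows lie 296 and 150 bases from the gene's 5′ end in the count table, and Ubtf has 6 RefSeq windows. Whether these letters have a part in the changes was not tested.
Znrd1: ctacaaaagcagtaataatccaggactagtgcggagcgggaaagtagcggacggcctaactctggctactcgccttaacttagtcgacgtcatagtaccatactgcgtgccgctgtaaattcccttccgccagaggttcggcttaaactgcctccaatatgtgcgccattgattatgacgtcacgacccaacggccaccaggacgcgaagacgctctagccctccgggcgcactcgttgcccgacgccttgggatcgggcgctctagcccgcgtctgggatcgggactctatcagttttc

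Of the initiation factors, Ubtf changed more. Ubtf (ENSMUSG00000020923, chr11:102304560-102319742, minus strand) was at 111, 105, 109 and 112 CPM in Vehicle and at 39.0, 58.6, 66.4 and 78.6 CPM in AG636. The Vehicle samples were almost equal, while the AG636 samples were spread out and all lower, with sample 1 the lowest and sample 4 the highest. Ubtf fell from 109 ± 2.95 to 60.7 ± 16.6 CPM, and its log2 fold change was -0.89 (SE 0.17, 95% interval -1.27 to -0.52, limma-voom adjusted p = 0.00834), at rank 167 from the lowest among 10911 genes.

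Rrn3 (ENSMUSG00000022682, chr16:13780708-13814839, plus strand) was at 45.2, 45.6, 49.1 and 45.9 CPM in Vehicle and at 36.7, 34.8, 35.6 and 47.0 CPM in AG636. AG636 samples 1 to 3 were close together and below all Vehicle samples, whereas AG636 sample 4 was within the Vehicle range. The means were 46.5 ± 1.76 and 38.5 ± 5.69 CPM, and the log2 fold change of -0.28 (SE 0.11, 95% interval -0.52 to -0.03) did not pass the test (limma-voom adjusted p = 0.121). Without AG636 sample 4 the log2 fold change was -0.36 and passed it (adjusted p = 0.0301).

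The RefSeq promoters of both initiation factors are printed for comparison, Ubtf from chr11:102319543-102319842 (minus strand) and Rrn3 from chr16:13780449-13780748 (plus strand), both GRCm38.p6 and in the direction of transcription, with the same capitals. The window of Ubtf, whose start site lies 150 bases from the gene's 5′ end in the count table and which is 1 of 6 RefSeq windows of this gene, held no match.
Ubtf: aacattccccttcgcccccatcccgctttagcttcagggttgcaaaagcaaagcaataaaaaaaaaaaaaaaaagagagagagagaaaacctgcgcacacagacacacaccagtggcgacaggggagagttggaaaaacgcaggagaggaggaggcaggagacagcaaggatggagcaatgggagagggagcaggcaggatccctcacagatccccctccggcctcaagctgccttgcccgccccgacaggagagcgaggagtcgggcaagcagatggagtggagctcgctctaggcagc
Rrn3: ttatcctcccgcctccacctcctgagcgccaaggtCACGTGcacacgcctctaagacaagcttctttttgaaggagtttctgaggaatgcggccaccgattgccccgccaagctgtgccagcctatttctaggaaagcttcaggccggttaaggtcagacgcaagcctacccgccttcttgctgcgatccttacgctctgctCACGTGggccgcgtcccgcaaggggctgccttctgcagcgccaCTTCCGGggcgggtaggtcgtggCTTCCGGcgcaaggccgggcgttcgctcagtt
In Rrn3 the E-box letters stand at -215 to -210 and -48 to -43, and the ETS letters, on the opposite strand, at -5 to 2 and 19 to 25.

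All 10 genes had a RefSeq promoter window of 300 bases, and both strands were searched for 5 motifs. E-box letters (CACGTG) were in 2 of the 10, against 7.15% of all 32851 windows and 10.2% of the 10404 windows of tested genes. ETS letters (CCGGAAG) were in 4 (Polr1c, Polr1e, Cd3eap and Rrn3), against 8.86% and 19.8%. The NF-Y letters CCAAT, not capitalized above, were in 2 (Polr1a and Znrd1), against 37.4% and 38.3%. The YY1 letters AANATGGC were in 0 of 10, against 6.05% and 9.4%, and the NRF1 motif in its palindromic form in 0, against 0.971% and 2.28%. The windows of the 10 genes had a median of 14.5 CpG dinucleotides, against 7 over all windows and 21 over those of tested genes. A match describes the letters of the window and is no evidence of binding.

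The 10 genes did not move by the same amount in the same samples. In each of the 4 AG636 samples, 9 of the 10 genes were below their Vehicle mean. The median log2 level over the Vehicle mean was -0.41 in AG636 sample 1, -0.52 in sample 2, -0.44 in sample 3 and -0.51 in sample 4, so that the samples were alike in the middle of the list. They differed in which genes were lowest. AG636 sample 4 was the highest of its group for 4 genes (Polr1a, Cd3eap, Rrn3 and Ubtf) and the lowest for Polr1c and Polr1d. AG636 sample 1 had the lowest Ubtf (log2 level over the Vehicle mean -1.49), and AG636 sample 2 the lowest Cd3eap (-1.41) and Polr1e (-1.04). Among the Vehicle samples the largest departure was that of Polr1b in sample 2 (-0.42). The summed mature myeloid markers were also unequal among AG636 samples, at 16.02 and 20.3 CPM in samples 1 and 3 and 149 and 184 CPM in samples 2 and 4, and a part of these cells in the pattern was not tested.

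**Figure D3:**
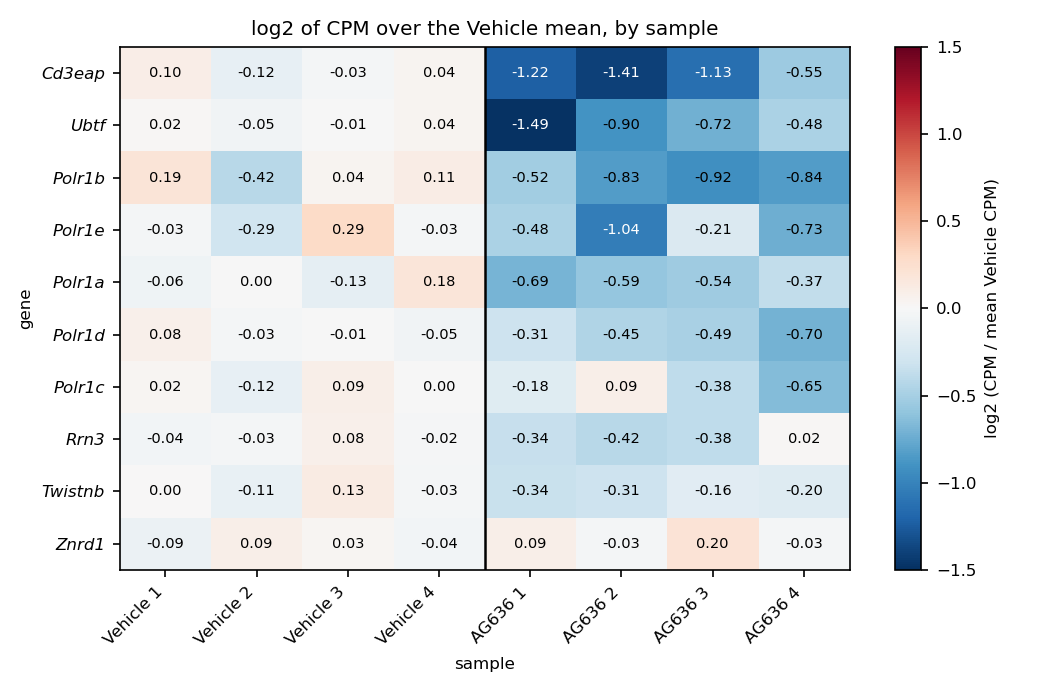
Each cell gives the log2 of a gene's CPM over its mean in Vehicle, for 10 genes (rows, ordered by fold change) and 8 samples (columns; the line divides the groups), with blue for lower and red for higher. AG636 sample 4 is the palest of its group for Cd3eap, Ubtf, Polr1a and Rrn3 and the darkest for Polr1d and Polr1c, and Znrd1 is near 0 throughout.

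Pol I also contains 5 subunits that are common to all nuclear RNA polymerases. Of these, 4 passed the test as lower and 0 as higher, with a median log2 fold change of -0.55, beside 8.49% of all tested genes called lower. Polr2f fell from 110 ± 7.84 to 75.4 ± 7.54 CPM (log2 fold change -0.55, limma-voom adjusted p = 0.00581), Polr2h from 32.6 ± 3.84 to 19.3 ± 2.72 CPM (-0.76, adjusted p = 0.00643) and Polr2e from 108 ± 3.74 to 76.9 ± 9.67 CPM (-0.50, adjusted p = 0.00991). Polr2l, at only 9.79 ± 1.21 and 5.35 ± 2.21 CPM, had a log2 fold change of -0.93 (adjusted p = 0.0396) and lost the call without any 1 sample other than AG636 sample 3 or 4, by edgeR (adjusted p = 0.0580), with library size alone (adjusted p = 0.0566) and with no filter (adjusted p = 0.0592). The fifth, Polr2k, did not pass.

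Of 10 subunits that only Pol III holds, 4 were lower and 0 higher, with a median log2 fold change of -0.31, beside the same 8.49% of all tested genes. Polr3e fell from 42.5 ± 3.23 to 24.5 ± 4.996 CPM (log2 fold change -0.81, limma-voom adjusted p = 0.00554) and Polr3d from 38.5 ± 2.49 to 26.1 ± 3.68 CPM (-0.56, adjusted p = 0.0136). Polr3k (-0.38, adjusted p = 0.0350) and Polr3f (-0.41, adjusted p = 0.0367) lost the call with library size alone (adjusted p = 0.0964 and 0.0721), with no filter (adjusted p = 0.0730 and 0.110) and in most fits without 1 sample. Of 7 subunits held only by Pol II, 1 passed the test as lower, beside the same 8.49%, with a median log2 fold change of -0.15. This was Polr2d, which encodes a stalk subunit and fell from 24.0 ± 1.28 to 15.9 ± 1.54 CPM (-0.59, adjusted p = 0.0110). None of these 3 lists of other polymerase subunits had a gene that was called higher by limma-voom, edgeR or DESeq2. At an unadjusted limma-voom p under 0.05, 4 of 5 shared, 5 of 10 Pol III and 3 of 7 Pol II subunits were lower. Only the Pol III list had 1 that was higher at that threshold, which many of all tested genes also passed, as given above. The differences between the lists of the 3 enzymes were not tested.

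**Figure D4:**
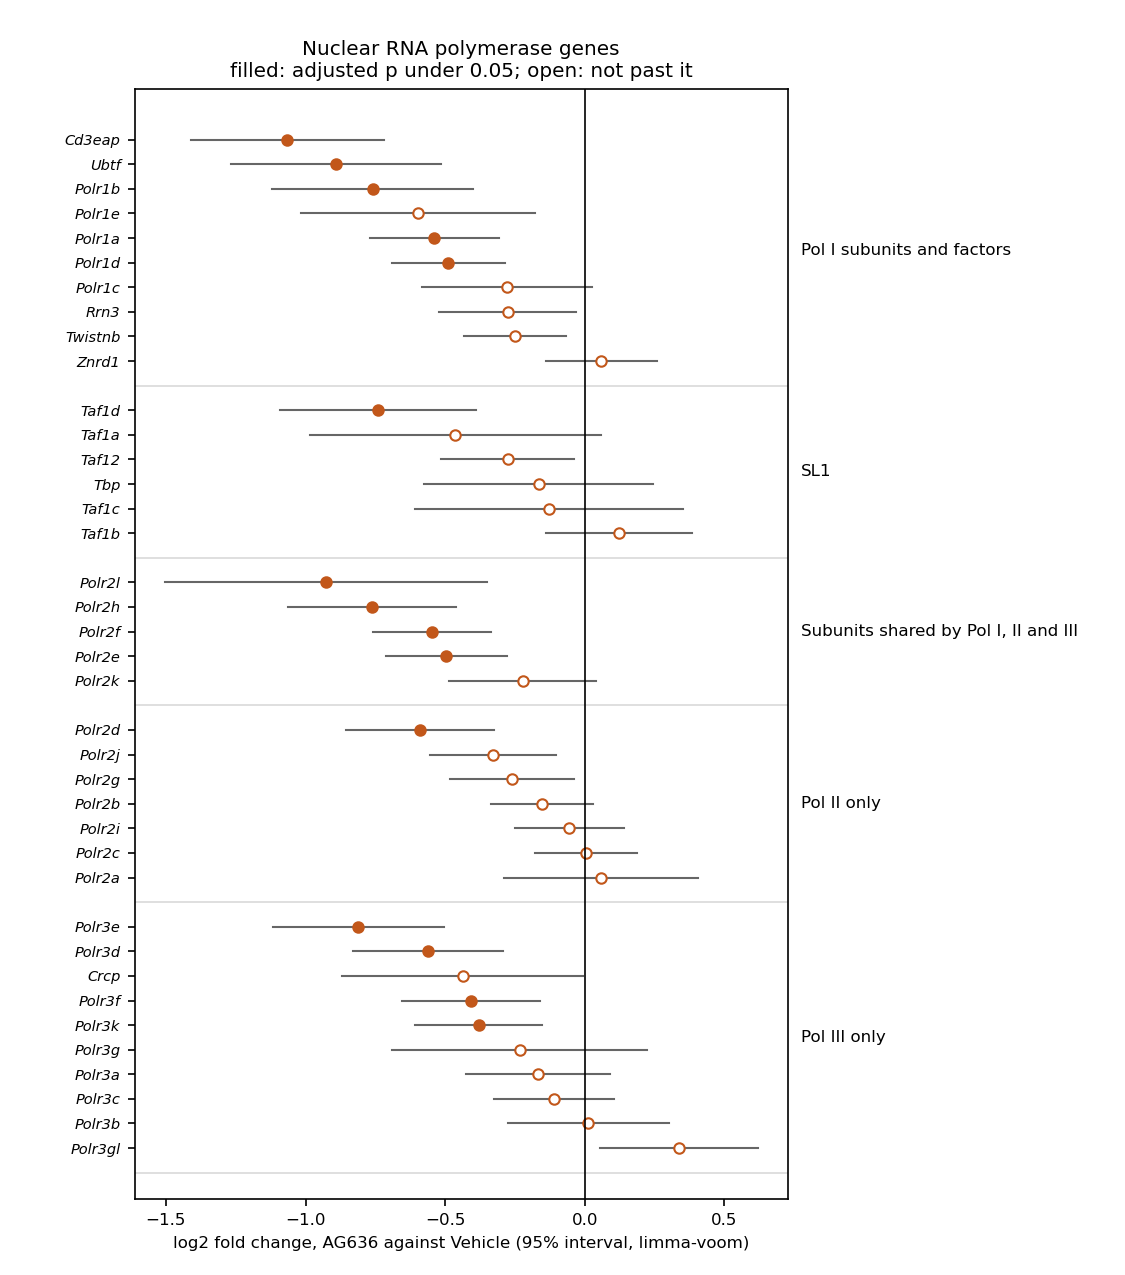
Points give the log2 fold change of AG636 against Vehicle and lines its 95% interval from limma-voom, for Pol I genes, SL1, shared subunits, and the subunits held only by Pol II or Pol III; filled points passed an adjusted p-value of 0.05. Filled points all lie left of 0, with 5 of 10 in the Pol I list, 1 of 6 in SL1, 4 of 5 in the shared subunits, 1 of 7 in Pol II and 4 of 10 in Pol III.

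Among genes that act with the polymerase, SL1 had 1 of 6 components lower and 0 higher (median log2 fold change -0.22), beside 8.49% of all tested genes called lower, so that a count of 1 is no result about the list. This was Taf1d, which fell from 278 ± 5.30 to 171 ± 42.8 CPM (log2 fold change -0.74, SE 0.16, limma-voom adjusted p = 0.0136). Of 6 nucleolar cofactors, 4 were lower and 0 higher, with a median of -0.38, beside the same 8.49%. Nolc1, a nucleolar phosphoprotein that binds the polymerase, fell from 210 ± 6.53 to 117 ± 24.1 CPM (-0.87, adjusted p = 0.00312), and Mybbp1a, a nucleolar protein of ribosomal RNA synthesis and processing, from 188 ± 6.88 to 118 ± 8.43 CPM (-0.68, adjusted p = 0.00178). The helicase gene Ddx21 fell by 0.42 log2 units (adjusted p = 0.0124). Tcof1, which encodes treacle, a partner of UBF, had a log2 fold change of -0.34 (adjusted p = 0.0376) and lost the call with library size alone (adjusted p = 0.0977) and without most single samples. Of 7 genes of rDNA chromatin and termination (median -0.15) and 8 kinase genes that act on Pol I factors (median 0.04), 0 passed limma-voom, edgeR or DESeq2. At an unadjusted limma-voom p under 0.05, the first list had 1 lower and 1 higher and the second 1 lower and 0 higher.

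Myc, an activator of Pol I genes, fell from 97.6 ± 19.3 to 56.6 ± 7.12 CPM (log2 fold change -0.77, SE 0.15, limma-voom adjusted p = 0.00867), without overlap between the groups. Whether the lower Myc level has a part in the changes of the Pol I genes was not tested. The study names Myc among short-lived transcripts that AG636 left unaffected, without naming a leukemia model in that sentence. Its figure on transcript half-life is of cells from another model, driven by MLL-AF9 and Nras. In cultured cells of that model it reports lower MYC protein after AG636. Yy1 was at 192 ± 3.33 and 187 ± 17.4 CPM (-0.04, adjusted p = 0.773) and Dhodh, the gene of the enzyme that AG636 inhibits, at 33.0 ± 4.002 and 29.8 ± 2.39 CPM (-0.14, adjusted p = 0.442). New transcription by Pol I was not measured, because the library kit primes on poly-A. Annotated genes on rDNA repeat sequence still held 4.75 to 8.01% of the counts of a sample. With multi-mapping settings not given, these counts are no measure of Pol I output. Of the annotated genes that lie on rDNA repeat sequence, Gm42418 was at 69239 ± 12183 and 62298 ± 14588 CPM (-0.17, adjusted p = 0.576) and Gm26917 at 485 ± 81.9 and 553 ± 173 CPM (0.16, adjusted p = 0.629), and AY036118 was listed at 0 in all samples.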

How the data were processed

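Sorted RUNX1-RUNX1T1 leukemia cells were profiled with the QuantSeq 3′ mRNA kit in 4 Vehicle and 4 AG636 samples. The authors deposited unnormalized counts of reads per gene, made by trimming with cutadapt (1.9.1), mapping to mm10 with HISAT2 (2.0.4) and counting with featureCounts of Subread (1.5.0-p3), with versions from the submitters' processing notes. FastQC is also listed there. Strand and multi-mapping settings are not given in the sources used here, so overlapping or antisense genes and near-identical copies cannot be resolved. The table held 54838 Ensembl genes, of which 54723 had a symbol and 54037 the same start and end in GENCODE M21 (GRCm38), all 10 Pol I genes included.

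Samples were grouped by their titles. Genes were kept by filterByExpr (minimum count 10), scaled by TMM factors and compared by limma-voom (R 4.3.3 with edgeR 4.0.16 and limma 3.58.1) with group as the only term, two-sided, with Benjamini-Hochberg adjustment over all 10911 genes tested and a threshold of 0.05. Levels are CPM of the TMM-scaled library size. At totals of 6120030 to 7162036 counts, 3 counts correspond to 0.419 to 0.490 CPM, the limit that a count of 0 allows for counting error only. No pair of samples agreed within sampling noise (chi-square per degree of freedom 3.88 to 25.4 within groups and 23.8 to 37.6 between them).

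Alternatives were other tests (DESeq2 1.42.0, the quasi-likelihood test of edgeR, limma-trend, and voom with quality weights per sample), other scaling (upper-quartile factors, RLE factors, or none beyond library size), other filters (10 counts in every sample, none, or mitochondrial and rDNA repeat genes removed), a block for replicate number, an adjusted p-value under 0.01 and each sample left out in turn. Leaving out Vehicle sample 4 with AG636 sample 3 was chosen after seeing the data. A few genes were left out of the lists for a reason unrelated to their values and are not reported here. The genes and lists were chosen with earlier results of these data known. Named genes are the 10 Pol I genes, up to 4 genes past the threshold with the smallest p in each other list, Myc, Yy1, Dhodh, the rDNA repeat genes and genes that overlap a Pol I gene. Of the overlapping genes other than Ercc1, Gm26628 had 3 counts over all samples, Gm19078 0, Rps10-ps4 10 and Fbxo10 93, and only Gm26628 shares exon bases (185, with Polr1a). Promoter windows were those of RefSeq (GRCm38.p6) nearest to the gene's start in the table, which was within 34 bases except for Polr1d (296) and Ubtf (150).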

Additional observations from a re-analysis of the deposited data

How the results depend on the processing

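The direction of each of the 10 Pol I genes was the same in all 20 alternatives, and 5 or 6 of them passed the threshold as lower in each, or 4 at an adjusted p-value under 0.01. The number was 6 with DESeq2, with the replicate block, without AG636 sample 2, 3 or 4, and without Vehicle sample 4 and AG636 sample 3. Over all genes, 1523 passed with limma-voom, between 688 and 1706 without 1 sample, 798 without Vehicle sample 1, 918 without sample 2, 688 without sample 3, 1010 without sample 4, and 1545 without Vehicle sample 4 and AG636 sample 3; the causes were not tested. With library size alone, 1489 passed, of which 38.3% were lower, against 60.8% in the fit of the report, and the median of all genes was 0.064; the median of the 10 genes was then -0.44 with the same 5 lower. The difference in the Cd3eap to Ercc1 ratio was between -0.97 and -0.65 without 1 sample (exact permutation p = 0.0571, the smallest these allow), -0.84 without Vehicle sample 4 and AG636 sample 3 (exact permutation p = 0.1, also the smallest) and -0.82 under the replicate block (exact sign-flip permutation p = 0.125, the smallest 4 pairs allow).

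Same-numbered samples deviated from their group means with correlations of -0.14, 0.01, 0.20 and 0.14, and differently numbered samples with -0.33 to 0.25. These values show no pairing by number but cannot exclude it. With the replicate block 1446 genes passed over all, and Polr3f (adjusted p = 0.0689) and Tcof1 (adjusted p = 0.0543) lost the call. Genes that did not pass the test turned direction in 4 cases: Yy1 to 0.028 with library size alone and 0.0087 without AG636 sample 1 (-0.086 to 0.0087 without 1 sample), Gm26917 to -0.04 without AG636 sample 1 (-0.038 to 0.31 without 1 sample), and Dhodh (-0.20 at the lowest without 1 sample) to 0.0062 without Vehicle sample 4 and AG636 sample 3. Of 598 combinations of a named gene and an alternative, 550 kept direction and call, 38 lost the call and 6 gained it. The 38 were those of Polr2l, Polr3k, Polr3f and Tcof1. Counts of 62 and above for every Pol I gene in every sample limit the precision mainly of Polr1e.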
